A study of Drosophila melanogaster with 3 samples.

Results

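RNA polymerase II, which transcribes all protein-coding genes, is built from a set of conserved protein subunits. The genes Polr2A to Polr2J, which encode 10 of these, were taken by symbol from 13945 protein-coding genes that the annotation places on 6 arms of the Drosophila melanogaster genome. They were examined for peaks of CG12942, a protein with no given name, in a ChIP-seq experiment in which sites occupied by a protein are recovered with an antibody and sequenced. Whole embryos of 0 to 24 hours, sexes mixed, came from a transgenic line that stably expresses CG12942 with green fluorescent protein (GFP) at its C terminus. Sonicated chromatin was precipitated through the tag. The samples formed 1 group of 3 biological replicates, each a biosample of its own, all from the same line and all carrying the transgene. No untagged embryos, other conditions or control library were analysed here, and a mixture of all embryonic tissues and stages was sampled, so no cell type can be assigned to a peak. The depth of the libraries is unknown, as no read totals were at hand.

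Subunits A and B form the catalytic cleft in which RNA is made, and subunits C and J form a dimer on which the enzyme is assembled, as known from yeast and human polymerase. Subunits D and G make the stalk, a detachable module near the RNA exit, and subunits E, F and H are shared with RNA polymerases I and III. Subunit I takes part in proofreading by transcript cleavage, as known from yeast. Genes for this enzyme are used in nearly all cells, and in flies many such housekeeping genes lie head to head, with a divergent neighbour transcribed from a nearby start.

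CG12942 peaks lay at the promoters of most subunit genes. An optimal summit lay within 500 bp of the transcription start site (TSS) of Polr2B, Polr2C, Polr2E, Polr2F, Polr2H, Polr2I and Polr2J, which are 7 of the 10 genes, against 19.2% of all protein-coding genes. Optimal peaks are the 3844 that the authors kept after comparing replicates, and a summit is the highest point of a peak as they recorded it. In the pooled list of 27271 peaks, called on all 3 libraries together, Polr2A and Polr2D had a promoter summit as well, for 9 of 10 genes against 51% of all genes. The pooled list was the input to the comparison of replicates and contains background as well as peaks. The optimal peaks were exactly the 3844 pooled peaks with the highest signal, so the genes that differ between these counts differ in the strength of the pooled peak. An optimal peak therefore need not rank high in every replicate. Polr2G had no summit within 500 bp in any list. The groups of genes were described and not tested, since the members were chosen with earlier results of these data known.

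The peaks differed widely in strength between subunit genes. Ranked by the authors' peak signal within each replicate list, where rank 1 is the strongest peak, the promoter peaks of Polr2B, Polr2E, Polr2F, Polr2H and Polr2J were in the top 3844 of all 3 replicates. These 5 of 10 genes compare with 13.4% of all protein-coding genes. Polr2A, Polr2C and Polr2I reached the top 3844 in 1 replicate each, and Polr2D and Polr2G in 0. Signal values scale with depth and were compared only within a list. The lists of replicates 1, 2 and 3 held 30000, 30000 and 27870 peaks. Top counts, fold ranges and overlaps of ranks used the rank numbers, and some ranks are also given as a percent of the list.

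**Figure D1:**
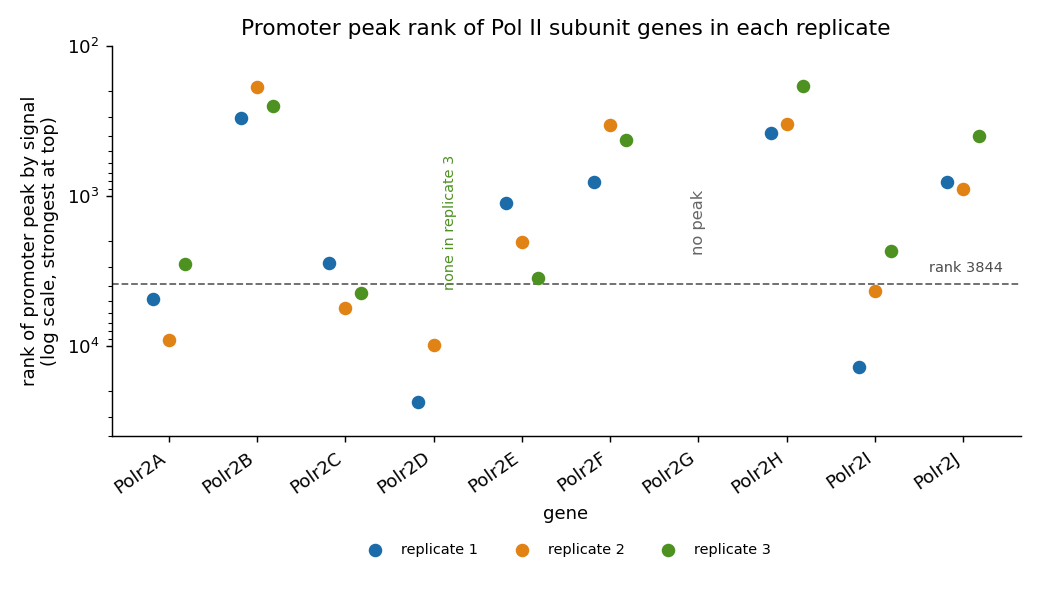
Rank of the strongest promoter peak of each subunit gene (x axis) in replicates 1, 2 and 3 by peak signal (y axis, log scale, strongest at the top), with 1 point per replicate and a dashed line at rank 3844. Polr2B and Polr2H rank 383 or better in every replicate, Polr2I spreads from rank 2333 to rank 13774, and Polr2G has no peak.

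Promoter sequences are shown for 7 genes, as examples for the results on base composition and motifs. For Polr2B, Polr2C, Polr2I and Polr2J the 101 bases centred on the optimal summit are printed, and capitals mark unbroken runs of at least 8 A or T. These genes have the highest share of A and T among those with an optimal summit. The windows of Polr2H, Polr2F and Polr2E are not printed, and at Polr2F and Polr2E the longest runs, 4 and 6 bases, are too short to be marked. For Polr2A, Polr2D and Polr2G, which had no optimal summit, the bases just upstream of the TSS are printed up to the TSS, and capitals mark matches to core promoter motifs. The sequences are from the RefSeq copy of the Release 6 (dm6) genome and are given on the strand of the subunit gene. The windows are chr3R:14125687-14125787 (plus strand) for Polr2B, chr2L:13833109-13833209 (plus) for Polr2C, chr3R:14308852-14308952 (plus) for Polr2I and chr2L:17410467-17410567 (minus) for Polr2J. The upstream stretches are chrX:11570327-11570427 (minus) for Polr2A, chr3R:18255488-18255529 (minus) for Polr2D and chr3R:15223181-15223281 (minus) for Polr2G.
Polr2B: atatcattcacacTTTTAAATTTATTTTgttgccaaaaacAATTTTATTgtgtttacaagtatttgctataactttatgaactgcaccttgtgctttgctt
Polr2C: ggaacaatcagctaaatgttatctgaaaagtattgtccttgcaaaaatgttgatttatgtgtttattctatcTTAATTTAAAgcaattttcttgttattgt
Polr2I: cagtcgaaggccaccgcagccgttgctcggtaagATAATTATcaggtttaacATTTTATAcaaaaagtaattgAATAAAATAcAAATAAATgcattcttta
Polr2J: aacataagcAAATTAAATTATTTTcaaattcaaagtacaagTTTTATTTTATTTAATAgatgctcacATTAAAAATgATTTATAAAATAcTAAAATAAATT
Polr2A: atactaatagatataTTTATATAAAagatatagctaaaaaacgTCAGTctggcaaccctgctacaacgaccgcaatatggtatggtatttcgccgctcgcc
Polr2D: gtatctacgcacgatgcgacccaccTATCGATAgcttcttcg
Polr2G: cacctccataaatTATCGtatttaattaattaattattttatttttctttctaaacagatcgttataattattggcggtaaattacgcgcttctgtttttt

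The catalytic subunit genes differed from each other. Polr2B (FBgn0262955; dm6 chr3R:14125791-14130111, plus strand) encodes the second largest subunit and had the strongest optimal peak of the 10 genes, although Polr2H ranked ahead of it in replicate 3. Its optimal peak, chr3R:14125503-14125858, had a signal of 360 and ranked 233 among all optimal peaks. Its signal was 114, 118 and 125 in replicates 1, 2 and 3, at ranks 303, 188 and 251. All replicates thus placed the peak within the top 1.01% of their lists, and 91.8% of the 2008 optimal promoter summits were weaker. The optimal summit lay 54 bp upstream of the TSS, in sequence with no annotated gene, and the replicate summits lay 99, 53 and 87 bp upstream.

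Polr2A (FBgn0003277; chrX:11562800-11570326, minus strand) encodes the largest subunit, whose C-terminal repeats are phosphorylated during transcription. No optimal summit lay near it, and the closest was 6465 bp from its TSS. Its pooled peak, chrX:11570210-11570613, had a signal of 75.8 and ranked 4022, just past the 3844 optimal peaks, whose lowest signal was 78.9. The replicate peaks had signals of 27.7, 14.2 and 33.4 and ranked 4838, 9119 and 2828. Replicate 3 was the strongest and replicate 2 the weakest, a 3.22-fold range of ranks. The summits of replicates 1 and 3 lay 88 and 86 bp upstream of the TSS, and that of replicate 2 lay 155 bp upstream. In the sequence above, the capitals that begin 86 bases upstream of the TSS, at the position of the pooled summit, are overlapping matches to TATAAA on both strands. The other capitals are an initiator match, TCAGT, 58 bases upstream.

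The genes of the assembly dimer were also unequal. Polr2J (FBgn0032634; chr2L:17409698-17410406, minus strand) had an optimal peak at chr2L:17410417-17410676 with a signal of 234 and rank 619, stronger than 79.7% of optimal promoter summits. Its signals were 74.9, 58.2 and 103 in replicates 1, 2 and 3, and its ranks 802, 898 and 398. Every replicate placed it in the top 2.99% of the list. Its summits were the most spread of the subunit genes: 51 bp upstream of the TSS in replicate 1, 171 in replicate 2 and 156 in replicate 3, a range of 120 bp. Replicate 1 had a weaker second peak there, with its summit 250 bp upstream and a rank of 2504.

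Polr2C (FBgn0026373; chr2L:13833337-13834306, plus strand) had an optimal peak at chr2L:13832957-13833360 with a signal of 85.7 and rank 3425, and only 8.57% of optimal promoter summits were weaker. Its signals were 38.7, 18.7 and 23.9, at ranks 2796, 5571 and 4441. Replicate 1 placed it in the top 3844 and the others did not. Its summits lay 177, 217 and 171 bp upstream of the TSS, a range of 46 bp. A far stronger peak lay 2113 bp from its TSS, at CenG1A and mRpS23, a mitochondrial ribosomal protein gene, with an optimal signal of 902 and rank 21 in each replicate.

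The genes of the stalk had the least signal. Polr2D (FBgn0263757; chr3R:18252843-18255487, minus strand) had a pooled peak with a signal of 22.0 at rank 21821 of 27271. The lowest signal in the pooled list was 19.2. Replicate 1 had a peak of signal 10.1 at rank 23562 and replicate 2 a peak of signal 13.7 at rank 9860, with summits 2 bp upstream and 13 bp downstream of the TSS. Replicate 3 had none within 500 bp. Polr2D is therefore listed with a weak peak in 2 of 3 replicates, and the nearest optimal summit lay 13318 bp from its TSS. It shares its TSS with Ada2a, a histone acetyltransferase adaptor gene, on the same strand.

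Polr2G (FBgn0051155; chr3R:15222251-15223180, minus strand) was the only subunit gene of the 10 with no promoter summit in the optimal, pooled or replicate lists. The replicate lists were called loosely and contain background by design, and 54.1%, 49.7% and 45.5% of all protein-coding genes had a summit of replicate 1, 2 and 3 within 500 bp. In the same lists 9, 9 and 8 of the 10 subunit genes had one. The summits closest to the Polr2G TSS were 2295, 2041 and 4066 bp away in replicates 1, 2 and 3. The closest optimal summit, 4082 bp away, lay at CG12241 and SIDL and had a signal of 111 at rank 2318.

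Of the genes for subunits shared by the 3 nuclear polymerases, Polr2H and Polr2F had strong peaks and Polr2E an intermediate one. Polr2H (FBgn0037121; chr3L:21728932-21729694, plus strand) had an optimal peak at chr3L:21728644-21728945 with a signal of 342 and rank 254, stronger than 91.2% of optimal promoter summits. Its signals were 104, 93.3 and 142 and its ranks 383, 334 and 185 in replicates 1, 2 and 3. The replicate summits lay 154, 124 and 125 bp upstream of the TSS. All replicates ranked it within the top 1.28%, and the optimal summit, 142 bp upstream, fell in a 5′ UTR exon of CG11247.

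Polr2F (FBgn0003275; chr3R:5371795-5372397, plus strand) had an optimal peak at chr3R:5371610-5371838 with a signal of 268 and rank 460. Its signals were 74.9, 93.0 and 101 and its ranks 803, 336 and 426. Every replicate placed it in the top 2.68% of its list. The summits lay 85, 76 and 42 bp upstream of the TSS, and the optimal summit, 62 bp upstream, fell in a 3′ UTR exon of CG31542 and CG34277, which lie upstream and run in the same direction. It had no divergent partner.

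Polr2E (FBgn0033571; chr2R:10898031-10899060, minus strand) had an optimal peak at chr2R:10898991-10899394 with a signal of 133 and rank 1742, close to the middle of the optimal promoter summits, of which 49.7% were weaker. Its signals were 64.2, 36.6 and 28.4 and its ranks 1118, 2022 and 3544, so replicate 1 was the strongest and replicate 3 the weakest. The summits lay 152, 133 and 141 bp upstream of the TSS. Their range of 19 bp was the narrowest among the 8 subunit genes with a peak in every replicate. CG12942, the gene of the tagged protein, lies tail to tail with Polr2E, with 808 bases between them, and its own promoter peak, shared with cag, had a signal of 170 and ranks of 3981, 425 and 1228. The summits of both genes lay 4943 bp apart, and the extent of genomic sequence in the transgene is not given in the sources used here.

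Polr2I (FBgn0004855; chr3R:14309089-14310178, plus strand) was the subunit gene that varied most between replicates. Its optimal peak, chr3R:14308700-14309103, had a signal of 81.0 and rank 3704, and only 2.79% of optimal promoter summits were weaker. Its signals were 14.2, 21.9 and 38.1 and its ranks 13774, 4317 and 2333 in replicates 1, 2 and 3, a 5.9-fold range. Replicate 3 alone placed it in the top 3844. Its summits lay 126, 170 and 215 bp upstream of the TSS, a range of 89 bp. It was also the only gene of the 10 with a pooled summit in the gene beyond 500 bp of the TSS, and none had an optimal summit there.

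Ordered by their median rank over replicates, the genes with a peak in every replicate were Polr2B (251), Polr2H (334), Polr2F (426), Polr2J (802), Polr2E (2022), Polr2I (4317), Polr2C (4441) and Polr2A (4838). Between neighbours in this order the ranges of ranks overlapped, with the exception of Polr2J (398 to 898) and Polr2E (1118 to 3544). Over all 28 pairs of these genes, 19 had ranges that did not overlap, and the share among pairs of other genes was not computed. Polr2B, Polr2H, Polr2F and Polr2J each stayed ahead of Polr2E, Polr2I, Polr2C and Polr2A in every replicate. Within the first of these sets, Polr2B did not overlap with Polr2F or Polr2J, nor Polr2H with Polr2J, whereas the ranges of Polr2E, Polr2I, Polr2C and Polr2A all overlapped each other. The median rank of the subunit genes with a peak lay at 3.73%, 6.74% and 4.95% of the list in replicates 1, 2 and 3 (mean 5.14% ± 1.52, SD, n = 3). For all protein-coding genes with a peak it lay at 20.7%, 19.4% and 18.5% (19.6% ± 1.11, SD, n = 3). Each SD describes the spread between replicates and not between genes, and the difference was not tested.

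No replicate was the strongest for all genes. Between replicates 1 and 3, the peaks of Polr2C and Polr2E ranked higher in replicate 1, and those of the other 6 genes with a peak in every replicate ranked higher in replicate 3. The top 3844 held 6, 5 and 7 of the subunit genes in replicates 1, 2 and 3, against 18.6%, 19.2% and 18.8% of all protein-coding genes. The gene sharing its peaks with Polr2B was 140up, its divergent neighbour. Of 4682 genes compared and apart from 140up, CG17271 and RpS20, a ribosomal protein gene, had the ranks most like those of Polr2B, at 322, 202 and 254, with a summed log2 difference of 0.21 over the 3 replicates. Each rank belongs to a single peak, so CG17271 and RpS20 share the same peak in each replicate.

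Most subunit genes shared their promoter region with a divergent gene. A head-to-head partner, defined as a protein-coding gene transcribed away from the subunit gene with its TSS within 500 bp, was present at 7 of the 10 genes, against 27.4% of protein-coding genes. Of these, 5 had an optimal summit, as did 2 of the 3 genes without a partner. Over all protein-coding genes the shares with an optimal summit were 40.6% of head-to-head genes and 11.1% of the others. Where a summit lies between a pair of starts, the list does not tell to which gene it belongs, and the same peak counts for both.

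**Figure D2:**
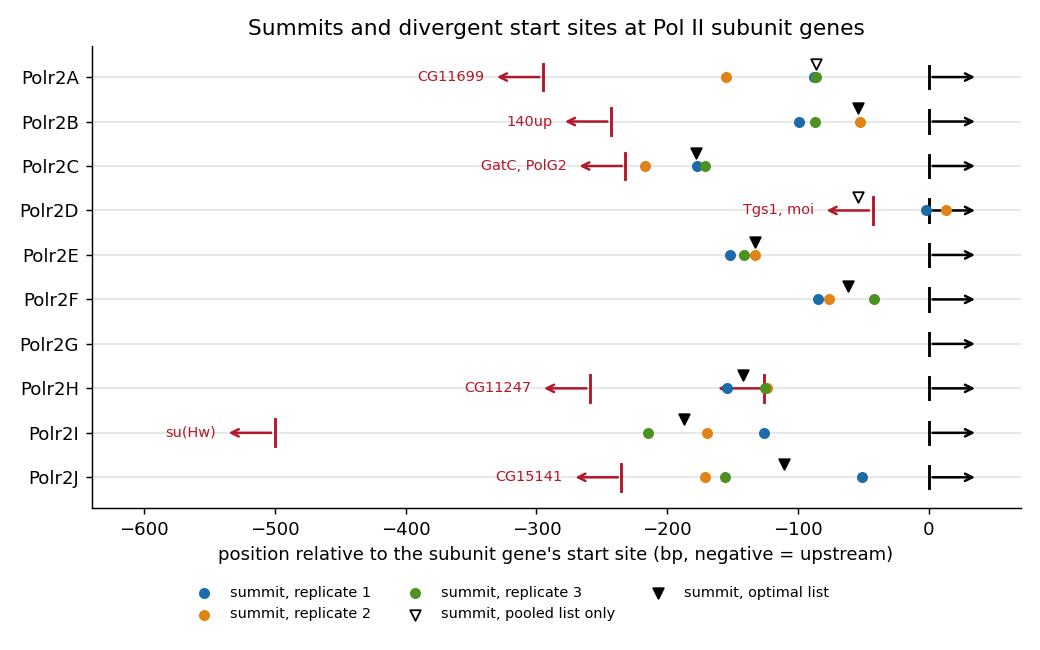
Positions of summits and start sites in bp from the TSS of each subunit gene (black bar and arrow), with divergent partner start sites as red bars and arrows, replicate summits as coloured points (strongest peak in each replicate) and optimal or pooled summits as triangles. The optimal summits of the 7 genes lie 54 to 187 bp upstream of the TSS, and at Polr2C and Polr2H the partner's start is the nearer one.

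At Polr2B the starts of the divergent pair lay 243 bp apart, and the optimal summit was 54 bp from Polr2B and 189 bp from 140up. At Polr2J the starts of Polr2J and CG15141 were 235 bp apart, with the summit near the midpoint, 111 and 124 bp away. At Polr2I the partner was su(Hw), which encodes an insulator-binding zinc finger protein, 500 bp away, and the summit lay 187 bp from Polr2I and 313 bp from su(Hw). In these pairs the summit lay between the starts and closer to the subunit gene. Polr2A and CG11699 were 295 bp apart and had the pooled summit 86 and 209 bp from their starts.

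The partner's start was the nearer one at 3 genes. At Polr2C it belonged to PolG2, for the accessory subunit of the mitochondrial DNA polymerase, and GatC, for a subunit of a mitochondrial amidotransferase acting on tRNA. Their shared TSS lay 232 bp from that of Polr2C, and the summit was 54 bp from it and 178 bp from Polr2C. At Polr2H, CG11247 had starts 259 and 126 bp away, and the summit was 117 and 16 bp from these and 142 bp from Polr2H. It lay between the starts only for the more distant of them. At Polr2D, the weak pooled summit lay 11 bp from the TSS of Tgs1, which encodes a cap hypermethylase, and moi, a telomere protein gene, and 54 bp from Polr2D. The starts there were 43 bp apart.

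Measured from the TSS of the subunit gene, all optimal summits lay upstream, 7 of 7, as did 9 of 9 in the pooled list, and the median distance was 133 bp over the 7. Measured from the nearest TSS of any protein-coding gene, 6 of the 7 optimal and 7 of the 9 pooled summits lay upstream, with a median position 62 bp upstream. By that measure 86.7% of all 2008 optimal promoter summits lay upstream, with a median position 106 bp upstream. The exceptions were Polr2H, whose summit lay 16 bp downstream of the closer CG11247 start, and, in the pooled list, Polr2D, 11 bp downstream of the Tgs1 and moi start. The median signal of the 7 was 234 against 134 for all optimal promoter summits, and 4 of the 7 lay above that value.

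The summits of the subunit genes differed in base composition. In the 101 bases at the optimal summit, A and T made up 85.1% at Polr2J, 74.3% at Polr2C, 73.3% at Polr2B, 67.3% at Polr2I and 66.3% at Polr2H, but 53.5% at Polr2F and 47.5% at Polr2E. The median over all 2008 optimal promoter summits was 66.3%, with 10% of them below 51.5% and 10% above 77.2%. Polr2J was thus near the top of the distribution, with 99.2% of summits lower, and Polr2E near its bottom, with 4.53% lower. The longest unbroken run of A or T was 17 bases at Polr2J and 15 at Polr2B, but 6 at Polr2E and 4 at Polr2F, against a median of 10.

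The windows 400 bp to either side of the summit had less A and T than the summit at 6 of the 7 genes, as at 78.7% of all optimal promoter summits. At Polr2J the flanks had 43.1% and at Polr2C 39.6%, so the summit exceeded them by 42.1 and 34.7 percentage points. Polr2E was the exception, with 57.4% in the flanks, more than at the summit. Polr2F and Polr2E, the least A- and T-rich, were also the genes without a divergent partner among the 7. Over all optimal promoter summits, A and T at genes with and without a partner was not compared. At the pooled summit of Polr2A, whose peak ranked 4022, just past the optimal list, the share was 74.3%. At that of Polr2D, which has divergent partners, it was 55.4%.

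**Figure D3:**
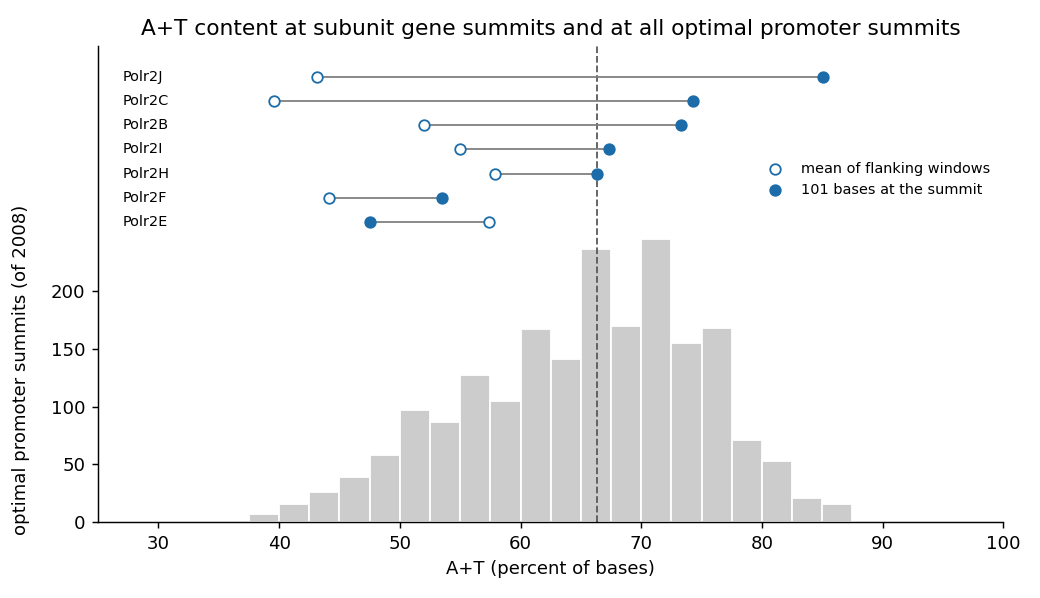
A+T percent (x axis) of the 101 bases at the optimal summit (filled points) and the mean of windows 400 bp to either side (open points) for 7 subunit genes, above a histogram of all 2008 optimal promoter summits (y axis, number of summits; dashed line, median 66.3%). Polr2J has the highest value at 85.1%, and Polr2E alone lies below its flanks.

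Matches to core promoter motifs lay at some of the summits. In a search of both strands up to 50 bp from the optimal summit, the DNA replication-related element (DRE, TATCGATA), the motif 1 core GGTCACAC, the motif 6 core GTATNTTT, the E-box CAGCTG and the GAGA element GAGAG were found at 0 of the 7 genes. Over all optimal promoter summits they occurred at 3.39%, 1.69%, 5.33%, 5.13% and 8.17%. The TATA box TATAAA was found at Polr2H, Polr2I and Polr2J (21.3% of all), the initiator TCAGT at Polr2H (17.4%) and the DRE core CGATA, which the full DRE contains, at Polr2F (23.4%). Any of the 8 motifs was present at 4 of 7 genes against 61.0% of all optimal promoter summits, a share near the background.

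In the promoter window from 250 bases before to 50 after the start of all 10 genes, the full DRE occurred only at Polr2D, where it begins 17 bases upstream of the TSS and is capitalised in the sequence above. It was present in 9.37% of all promoters. The motif 1 core was found at Polr2D, Polr2G and Polr2I (7.71% of all promoters), and the motif 6 core at Polr2E and Polr2I (14.9%). Of the genes with the motif 1 core, Polr2D had a weak peak, Polr2G none and Polr2I an optimal one. At Polr2G the capitalised DRE core, on the reverse strand, begins 88 bases upstream. The DRE core was found at 6 of 10 genes (47.5% of all promoters), TATAAA at 7 (45.9%), the initiator at 6 (51.6%), GAGAG at 5 (29.8%) and the E-box at 0 (17.7%). A match is a match of letters, and factor binding was not measured.

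The other polymerase genes were counted in the same way. The 3 other genes of the annotation named Polr2, which are Polr2K, Polr2L and Polr2M, had 0 optimal summits. Polr2K and Polr2L encode the remaining small subunits shared among the polymerases. Polr2M had a pooled peak at rank 26977 of 27271 and a peak in replicate 1 at rank 8266, Polr2L had a peak at rank 23457 in replicate 1, and Polr2K had none. RNA polymerase I genes had an optimal summit at 1 of 7, Polr1F, which pairs with the exonuclease gene Rat1 and had a signal of 80.5 at rank 3734. RNA polymerase III genes had one at 2 of 10. Of these, Polr3E, next to CG10584, had a signal of 275 and ranks of 567, 347 and 400. These shares, 14.3% for polymerase I and 20% for polymerase III, were near the 19.2% of all protein-coding genes, and 4 of 7 and 8 of 10 of the genes had a pooled summit, against 51% of all genes. The shared subunit genes were left out of the polymerase I and III lists. Of these, Polr2E, Polr2F and Polr2H, which had optimal summits, were counted only among the 10 subunit genes. Polr2K and Polr2L, which had none, were counted apart. The shares therefore do not describe whole enzymes, and the difference from the 10 subunit genes was not tested.

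**Figure D4:**
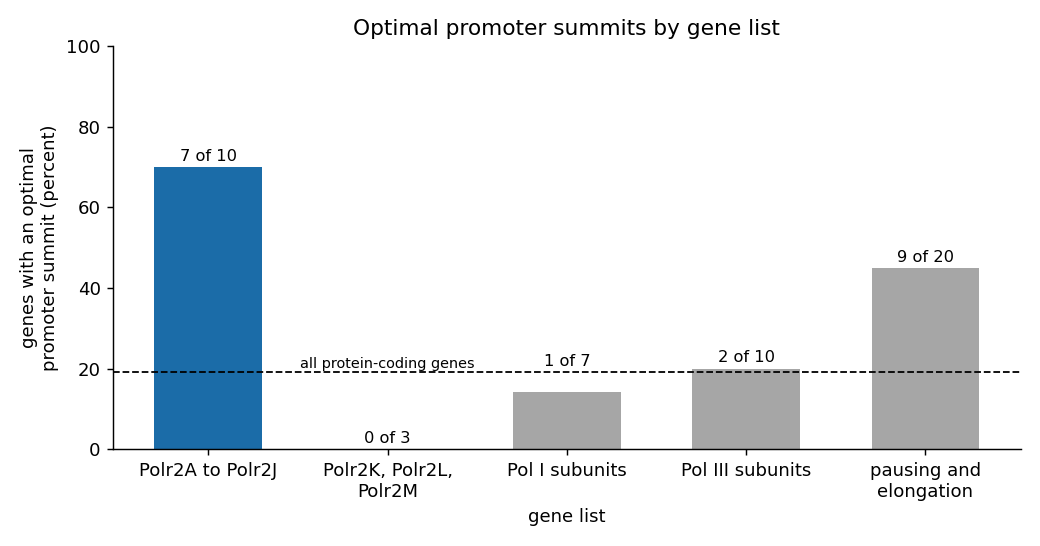
Share of genes with an optimal promoter summit (y axis, percent) in each gene list (x axis), with the number of genes above each bar and a dashed line at the share of all protein-coding genes, 19.2%. The bar of Polr2A to Polr2J stands at 70%, the bar of pausing and elongation genes at 45%, and those of the other polymerase lists between 0 and 20%. Subunit genes shared by the polymerases are counted only under their Polr2 names.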

How the data were processed

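ChIP-seq peak lists of 3 biological replicates of CG12942-GFP embryos, 1 group, were used as deposited on dm6. The file listings that accompany the deposited data give the origin of each list. A replicate list stems from its own library and a control, and the pooled list from all 3 libraries. The optimal list stems from these by IDR, a procedure that compares the ranks of peaks between replicates. Here it equalled the pooled peaks of highest signal. The aligner and peak caller were not given in the sources used here. Each peak carries a signal that the authors deposited with it. This signal is larger in deeper libraries, so ranks were taken within a list. The deposited −log10 q values were not used for ranking, and the −log10 p column of these lists holds a placeholder. The dm3 lists, signal tracks and control library were not analysed here. The number of per-sample columns left unused is 0.

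Summits were set against TSSs of protein-coding transcripts in the Ensembl release 115 annotation (BDGP6), with a 500 bp window, and the strongest peak in the window was taken. Coordinates are 1-based, and every peak lay within the length of its arm in the RefSeq genome used for sequences. The list of replicate 3 held 27869 peaks on the arms. Replicate numbers come from the labels. Motif and base counts used 101 bases at the summit. The members and the lists were chosen with earlier results of these data known, so no test was made, and counts stand beside the same count over all genes. The genes named are the members, their neighbours within 500 bp, list genes with an optimal summit, the genes most like Polr2B in rank, and those at the nearest or strongest other peak, which were chosen after their values were seen. Of the list genes with an optimal summit, 1 is not reported here, and list genes without one are mostly given as counts. The functions were checked on simulated data. Python 3.11.15, numpy 2.4.6, pandas 2.3.3 and matplotlib 3.10.9 were used.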

Additional observations from a re-analysis of the deposited data

How the results depend on the processing

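The results were recomputed under other settings, which gave 56 planned values and 3 from settings chosen after seeing the data. Of these 59, 12 moved by more than 1 SD between replicates (for A+T, between genes) or, for counts, by more than 1.5 times, so smaller changes such as 7 genes to 5 are not among them. The 7 subunit genes with an optimal summit stayed 7 with windows of 250 or 1000 bp, with the gene 5′ end alone and with overlap of peak intervals, and were 5 among the 1922 strongest optimal peaks. The share of all genes, 19.2%, was then 15.5%, 21.8%, 17.4%, 20.4% and 11.4%. With the top 3844 peaks shared by the remaining replicates in place of the optimal list, it ranged from 14.5% to 15.8%, and the subunit genes were 5, Polr2B, Polr2E, Polr2F, Polr2H and Polr2J, whichever replicate was left out. Over the 7 genes with an optimal summit, the widest distance between replicate summits, 120 bp, ranged from 46 bp without replicate 1 to 120 bp without replicate 3, so replicate 1 sets it at Polr2J. Genes with a motif at the summit, 4 of 7, were 2 within 25 bp and 10 of 10 in the longer promoter window, which covers other genes and more bases. The median A+T of 67.3% was 52.0% in the flanks. The head-to-head count fell from 7 to 5 with a 250 bp limit, and the count in the top peaks of all replicates from 5 to 4 with 1922 peaks, and was 7 with 10000. For the motif, head-to-head and top-peak counts under these other settings, the share over all summits, promoters or genes was not computed. The initiator alone occurred in 51.6% of all promoters. Ranking by −log10 p was not run, as that column holds no p-values. No paired analysis was possible because there is 1 group. With 3 replicates and unknown depth, absence of a peak, as at Polr2G, says only that none was listed.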

Other observations

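Genes that act on RNA polymerase II in pausing, elongation or phosphorylation were also often near an optimal CG12942 summit. Of 20 genes for pausing, elongation and phosphorylation of the polymerase's C-terminal repeats, 9 had an optimal promoter summit, 45% against 19.2% of all protein-coding genes, and 19 had a pooled one, against 51%. Fewer, 4 of the 20, were in the top 3844 of all 3 replicates, against 13.4% of all protein-coding genes. All 4 genes of the negative elongation factor (NELF), which holds the polymerase near the start of genes, were among them. TH1 had a signal of 225 and ranks of 955, 639 and 537 in replicates 1, 2 and 3. Nelf-E had a signal of 210 and ranks of 360, 1423 and 1095. Nelf-A had a signal of 161 and ranks of 1415, 829 and 1920. These genes were in the top 3844 of every replicate. NELF-B had a signal of 102 and ranks of 3929, 2957 and 1858, and was the weakest of the 4, missing the top 3844 in replicate 1.

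The other 5 genes with an optimal summit were Cdk12, a kinase of the C-terminal repeats (signal 193), Spt6, a histone chaperone gene (99.0), Cdk7 (95.0) and CycH (87.8), which form a kinase of the same repeats, and Ctr9 of the Paf1 complex (87.9). Of the 11 genes in this list with a divergent partner, 7 had an optimal summit, against 40.6% of all head-to-head genes. They were Nelf-E with the ribosomal protein gene RpL14, TH1 with mei-41, Cdk12 with SAK, Nelf-A with CG3337, NELF-B with CG12155, Cdk7 with snf and Ctr9 with Nt5a. Spt5, which travels with the polymerase and has Fak as a partner, had none, with ranks of 5819, 7184 and 6625. The list was chosen with earlier results known, and its difference from other genes was not tested.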
